A study of Mus musculus with 4 samples.

Results

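The MAP kinase feedback genes described here are 5 dual-specificity phosphatase genes, *Dusp2*, *Dusp4*, *Dusp5*, *Dusp6* and *Dusp10*, and 4 genes of the Sprouty family, *Spry1*, *Spry2*, *Spred1* and *Spred2*. They were chosen by symbol from the 18598 genes of the deposited table, where all 9 were listed, and all 9 were among the 14858 genes that were tested, those averaging at least 10 normalized counts. A normalized count is a gene's read count divided by a size factor of its library. The RNA came from LSK cells, the lineage-negative bone marrow fraction positive for SCA-1 and c-KIT, where blood stem cells and early progenitors are found. They were sorted from C57BL/6 mice of about 3 months, 10 days after cre induction. *Bptf* encodes the largest subunit of the NURF chromatin remodeler. The 2 *Bptf* cKO libraries came from mice with floxed *Bptf* alleles and *Mx1*-cre, and the 2 *Bptf* f/f libraries from mice with the floxed alleles alone, which the labels call control. Each library pooled 5 mice, and the animals of both groups had received pIpC in 3 injections, which turns on *Mx1*-cre through the interferon pathway. The *Mx1* promoter answers to interferon in many cell types, and because the *Bptf* f/f animals carried no cre, loss of *Bptf* and presence of cre cannot be told apart.

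Growth factor and cytokine receptors of blood progenitors act through Ras, Raf and MEK on the kinase ERK, while stress signals act on the kinases JNK and p38. Cells hold these signals in check partly by making inhibitors in response to them. Dual-specificity phosphatases remove the activating phosphates from the MAP kinases themselves, Sprouty proteins act between the receptor and Raf, and Spred proteins bring the Ras inhibitor neurofibromin to the membrane. Several of these genes are transcribed soon after ERK is activated, so that their RNA is often read as a trace of recent signalling.

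Between 14091054 and 30134742 reads per library fell on listed genes, and in both genotypes replicate 1 was the deeper library. *Bptf* had 5520 and 5850 normalized counts in *Bptf* f/f and 3398 and 3320 in *Bptf* cKO, a log2 fold change of -0.76 (standard error, SE, 0.090, adjusted p = 0.0439 in limma and 0.0531 in edgeR, and 0.0647 to 0.316 in limma without each library in turn). Of the markers of the gate, *Kit* lay between 13634 and 17051 normalized counts and *Ly6a*, which encodes SCA-1, between 726 and 1743 over the 4 libraries. The replicate 2 libraries stood apart from the replicate 1 libraries in both genotypes. They held 15675 and 11843 normalized counts of *Xist*, the X-inactivation RNA, against 0.775 and 3.25, and 582 and 738 of the pluripotency gene *Pou5f1* against 0 and 0. The feedback genes are therefore given library by library, and the differences also within each replicate number.

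Upstream sequence is shown for *Dusp5*, *Spry1* and *Dusp6*, the genes with the largest differences toward lower values in *Bptf* cKO libraries, to show which signal-responsive motifs lie beside them. The lines give bases upstream of the RefSeq start site on GRCm38.p6, 5' to 3' on the strand of the gene, which is the plus strand for all 3 genes, and capitals mark matches to the CArG box, the site of serum response factor. The *Dusp5* line ends before the earlier start site of GENCODE vM21.
*Dusp5*, chr19:53528895-53529108: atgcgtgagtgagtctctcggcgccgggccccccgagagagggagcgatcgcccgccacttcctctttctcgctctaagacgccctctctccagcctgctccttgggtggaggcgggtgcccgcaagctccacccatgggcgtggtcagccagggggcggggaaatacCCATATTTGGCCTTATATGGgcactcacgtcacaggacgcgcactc
*Spry1*, chr3:37639697-37639946: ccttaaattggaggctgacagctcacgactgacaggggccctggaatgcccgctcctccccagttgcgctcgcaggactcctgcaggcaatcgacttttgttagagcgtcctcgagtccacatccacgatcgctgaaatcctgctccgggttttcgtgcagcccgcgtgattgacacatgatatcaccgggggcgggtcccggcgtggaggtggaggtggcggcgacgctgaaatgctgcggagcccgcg
*Dusp6*, chr10:99262981-99263230: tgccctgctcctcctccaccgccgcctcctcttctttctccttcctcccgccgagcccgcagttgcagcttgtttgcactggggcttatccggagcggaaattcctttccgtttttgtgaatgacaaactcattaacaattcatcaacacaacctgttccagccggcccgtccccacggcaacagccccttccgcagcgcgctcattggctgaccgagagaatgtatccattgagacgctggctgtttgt
The *Dusp5* window held 2 CArG boxes side by side, CCATATTTGG from base -82 to -73 and CCTTATATGG from -72 to -63, counted from the RefSeq start. A CArG box was found in 1.47% of the 32851 windows of 250 bases upstream of a start site in the RefSeq table, and in none of the 7 other feedback genes that had a window. *Dusp4* had no entry. None of the 8 windows held an AP1 site (TGANTCA, in 6.75% of all windows), a cAMP response element (TGACGTCA, 1.55%), an ETS site (CCGGAAG, 6.91%) or an amino-acid response element (TGATGNAA, 3.45%), searched on both strands. A missing match says only that these letters are not in this window.

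*Dusp5* encodes a nuclear phosphatase that acts on ERK and lies on chromosome 19 from 53529109 to 53542431 (GRCm38, GENCODE vM21). In *Bptf* f/f it had 1166 normalized counts in replicate 1 and 1613 in replicate 2, and in *Bptf* cKO 805 and 488 in the same order, which is kept below. Both *Bptf* cKO libraries lay below both *Bptf* f/f libraries, and the gap between the groups was wider in replicate 2. The means were 1389.5 ± 316 (SD, n = 2) and 646 ± 224 (SD, n = 2), a log2 fold change of -1.13 (SE 0.28, 95% interval -1.85 to -0.41). This was the only member past an unadjusted p of 0.05 in the direction of lower values, and it did not pass in limma after adjustment over all tested genes (adjusted p = 0.168). The edgeR test on the recovered reads gave an adjusted p of 0.189, and DESeq2 gave 0.00732. The log2 fold change was -0.53 within replicate 1 and -1.72 within replicate 2, and ran from -1.49 to -0.77 when each library was left out in turn. In bulk RNA of this kind, fewer cells that express a gene and less RNA per cell cannot be told apart. An antisense gene covers 547 of the 2473 exon bases of *Dusp5*, and whether counting used the strand is not given in the sources used here.

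*Dusp2*, a nuclear phosphatase of ERK and p38 that is known from activated blood cells, had 5238 and 3311 normalized counts in *Bptf* f/f and 3634 and 2709 in *Bptf* cKO. The groups overlapped, and in both genotypes replicate 1 was the higher library. Its log2 fold change was -0.41 (SE 0.26, adjusted p = 0.517 in limma), with -0.53 within replicate 1 and -0.29 within replicate 2. Replicate 2 differed from replicate 1 by -0.66 in *Bptf* f/f and by -0.42 in *Bptf* cKO on the log2 scale. That shift had the same direction in both genotypes, and the limma fit on genotype alone counts it as spread. *Bptf* f/f replicate 1 and then *Bptf* cKO replicate 1 were the highest libraries for *Dusp2* and also for granulocyte and monocyte markers, whose 7 genes summed to 43907 and 6625 normalized counts in *Bptf* f/f and 15019 and 8497 in *Bptf* cKO, with no marker at 0. The 5 B cell markers summed to 5461 and 1559 in *Bptf* f/f and to 3096 and 1916 in *Bptf* cKO, with *Ms4a1* at 0 in 1 *Bptf* cKO library. The part of such cells in the *Dusp2* values was not tested.

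*Dusp4*, a nuclear phosphatase of ERK that also acts on JNK, had the opposite sign. It had 104 and 414 normalized counts in *Bptf* f/f and 387 and 721 in *Bptf* cKO. *Bptf* f/f replicate 1 stood far below the other libraries, *Bptf* f/f replicate 2 lay just above *Bptf* cKO replicate 1, and the groups overlapped. The log2 fold change of 1.34 (SE 0.69, adjusted p = 0.433 in limma) had a 95% interval from -0.39 to 3.08. The difference was 1.89 within replicate 1 and 0.80 within replicate 2, both toward higher values in *Bptf* cKO. Without *Bptf* f/f replicate 1 the log2 fold change was 0.35, and without *Bptf* f/f replicate 2 it was 2.33. In each genotype the replicate 2 library, which held the *Xist* and *Pou5f1* reads, had the higher *Dusp4* value, by 1.99 in *Bptf* f/f and 0.90 in *Bptf* cKO on the log2 scale, and the part of that difference in the result was not tested.

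*Dusp6*, the cytoplasmic phosphatase of ERK, was well covered, with at least 1583 reads in every library. It had 2495 and 3743 normalized counts in *Bptf* f/f and 2292 and 2234 in *Bptf* cKO. The *Bptf* cKO libraries agreed closely with each other and lay under both *Bptf* f/f libraries, but *Bptf* f/f replicate 1 was nearer to them than to its own replicate. The log2 fold change was -0.43 (SE 0.20, 95% interval -0.94 to 0.074, adjusted p = 0.388 in limma). It was -0.12 within replicate 1 and -0.74 within replicate 2, and -0.14 without *Bptf* f/f replicate 2. *Dusp10*, whose product prefers JNK and p38, had the fewest reads of the 9 genes, 55 to 138 in a library. Counting error alone at 55 reads is 13.5% of the value. It had 82.2 and 125 normalized counts in *Bptf* f/f and 89.7 and 77.6 in *Bptf* cKO, so that a single *Bptf* f/f library stood above the other 3. Its log2 fold change of -0.28 (SE 0.31, adjusted p = 0.737 in limma) changed sign, to 0.022, without *Bptf* f/f replicate 2.

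*Spry1*, on chromosome 3 from 37639947 to 37644598, encodes an inhibitor of signalling from receptor tyrosine kinases to Ras and ERK. It had 442 and 1300.0 normalized counts in *Bptf* f/f and 361 and 361 in *Bptf* cKO. The *Bptf* cKO libraries were alike and lay under both others, *Bptf* f/f replicate 1 was close above them, and *Bptf* f/f replicate 2 was 2.94 times replicate 1. The means of 871 ± 607 and 361 ± 0.110 (SD, n = 2 each) gave a log2 fold change of -1.07 (SE 0.49, 95% interval -2.32 to 0.18, adjusted p = 0.388 in limma). Counting error alone is 6.25% at the 256 reads of *Bptf* cKO replicate 2, so the SD of 0.110 is not the precision of that mean. The difference was -0.29 within replicate 1 and -1.84 within replicate 2. Without *Bptf* f/f replicate 1 it passed (adjusted p = 0.0307 in limma, with the lone *Bptf* f/f library assumed to vary like the others), and without *Bptf* f/f replicate 2 the adjusted p was 0.524. The size of the *Spry1* difference therefore rested on *Bptf* f/f replicate 2. *Gm42922*, a gene on the opposite strand that covers 710 of the 2906 exon bases of *Spry1*, had at most 7 reads in a library.

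*Spry2*, another inhibitor of the same step, had 361 and 387 normalized counts in *Bptf* f/f and 315 and 284 in *Bptf* cKO. The groups did not overlap, and the replicates of each group were close. Its log2 fold change was -0.32 (SE 0.16, 95% interval -0.72 to 0.077, adjusted p = 0.414 in limma), from 201 to 484 reads per library. The *Spry2* estimate moved little when any library was left out, between -0.40 and -0.25, and was -0.20 within replicate 1 and -0.45 within replicate 2.

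*Spred1* and *Spred2* encode the proteins that bring neurofibromin to Ras. *Spred1* had 2095 and 2700 normalized counts in *Bptf* f/f and 2927 and 2955 in *Bptf* cKO. *Spred2* had 1089.8 and 1225 in *Bptf* f/f and 1508 and 1359 in *Bptf* cKO. For both genes the 2 *Bptf* cKO libraries lay above the 2 *Bptf* f/f libraries. The log2 fold changes were 0.31 for *Spred1* (SE 0.14, adjusted p = 0.393 in limma) and 0.31 for *Spred2* (SE 0.12, adjusted p = 0.312 in limma). Their 95% intervals, -0.056 to 0.67 and 0.0034 to 0.61 on the log2 scale, were narrow beside that of *Dusp4*. *Spred2* was the only member past an unadjusted p of 0.05 in the direction of higher values. Neither gene passed with edgeR or DESeq2. The difference was 0.48 within replicate 1 and 0.13 within replicate 2 for *Spred1*, and 0.47 and 0.15 for *Spred2*.

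**Figure D1:**
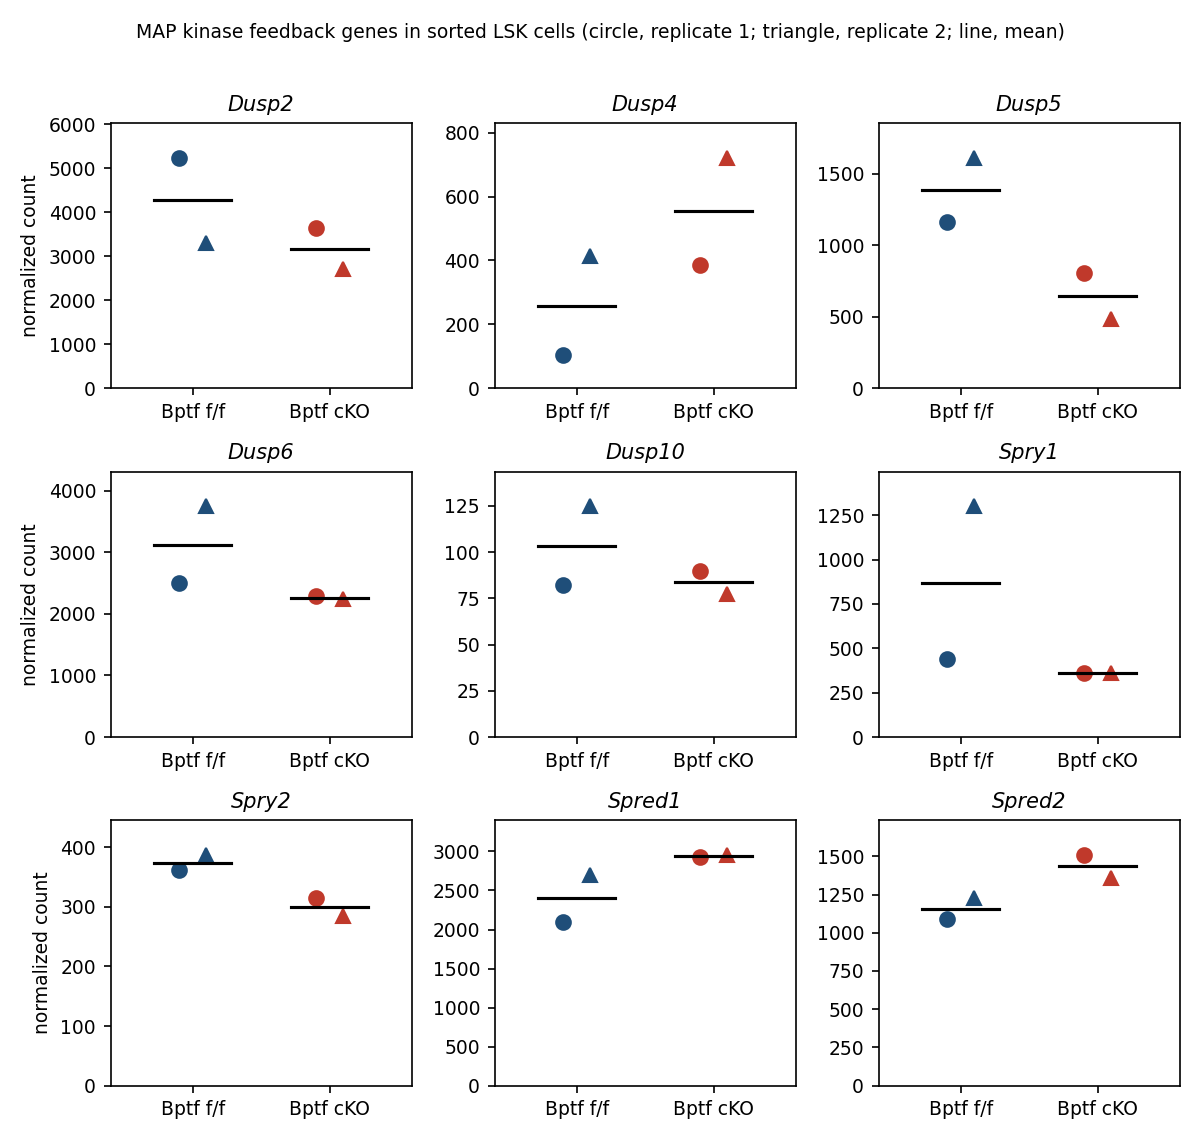
Normalized counts of the 9 genes in each library, on linear axes that start at 0. Circles are replicate 1, triangles replicate 2 and lines the group means (n = 2). *Bptf* f/f replicate 2 stands above the other 3 libraries for *Dusp5*, *Dusp6*, *Dusp10*, *Spry1* and *Spry2*, and the *Bptf* cKO libraries stand above both *Bptf* f/f libraries for *Spred1* and *Spred2*.

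Counted over the 9 genes, limma on genotype alone called 0 lower and 0 higher in *Bptf* cKO LSK cells after adjustment. It called 0.37% of tested genes lower and 0.37% higher. At an unadjusted p under 0.05 there were 1 lower and 1 higher, against 8.96% and 6.79% of tested genes. The edgeR test also called 0 in either direction, with 0.303% of tested genes lower and 0.33% higher. DESeq2 called 1 lower, *Dusp5*, and 0 higher, where it called 3.37% of tested genes lower and 2.15% higher. With the replicate number as a block, limma and edgeR each called 4 of the 9 lower and 1 higher. Blocked limma called 8.36% of tested genes lower and 6.03% higher. Blocked DESeq2 called 1 lower and 1 higher, with 3.77% and 2.57% of tested genes. The labels state no shared batch. The *Bptf* cKO libraries lay below both *Bptf* f/f libraries for 4 of the 9 genes, *Dusp5*, *Dusp6*, *Spry1* and *Spry2*, and above them for 2, *Spred1* and *Spred2*, while groups stood apart in the same ways for 23.8% and 23.2% of tested genes, or 47.0% in either direction. The median log2 fold change of the 9 genes was -0.32, beside 0.0010 over all tested genes. That median was -0.12 within replicate 1 and -0.45 within replicate 2. The differences within replicate 1 and within replicate 2 had the same sign for 8 of the 9 genes. The exception was *Dusp10*, at 0.12 within replicate 1 and -0.68 within replicate 2. The share of all tested genes with the same sign in both was not counted. For 1 gene alone, exact two-sided permutation of 2 against 2 libraries reaches no p smaller than 0.333.

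**Figure D2:**
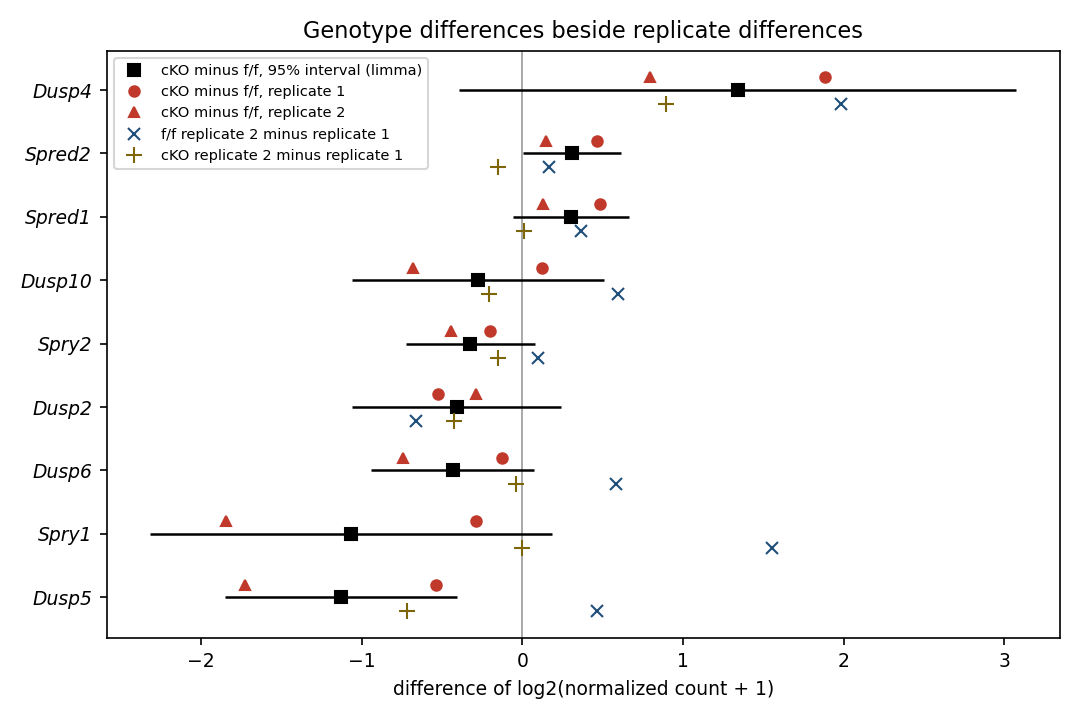
Differences of log2(normalized count + 1) for each gene. Squares with lines are the *Bptf* cKO minus *Bptf* f/f estimates with 95% intervals, red points are that difference within each replicate number, and crosses are the differences between replicates of a genotype. The replicate difference within *Bptf* f/f reached 1.99 for *Dusp4* and 1.55 for *Spry1*, larger in size than the fitted genotype difference of either gene. Within *Bptf* cKO it was 0.90 for *Dusp4* and -0.00062 for *Spry1*. A shift shared by both genotypes, as for *Dusp4*, drops out of the differences within each replicate number to the extent that it is shared.

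Set against exon length, the 9 genes covered a wide range in *Bptf* f/f LSK cells. *Dusp2* was the highest at 2134 ± 680 normalized counts per kilobase of merged exon (SD, n = 2), above 97.8% of the 14584 tested genes with a single gene model. *Dusp6* followed at 996 ± 282 and *Dusp5* at 562 ± 128, and these 3 phosphatases did not overlap with each other in any *Bptf* f/f library. *Spred1* at 353, *Spry1* at 299.7 and *Spred2* at 251 per kilobase overlapped as neighbours. *Spry2* at 179 came next, and *Dusp4* at 94.6 and *Dusp10* at 34.0 overlapped at the bottom. In *Bptf* cKO libraries the order began again with *Dusp2* and *Dusp6*, at 1583 and 722 normalized counts per kilobase. *Spred1* at 434 came next and stood apart from *Spred2* at 310.4. *Spred2*, *Dusp5* at 261, *Dusp4* at 202 and *Spry2* at 143 overlapped from neighbour to neighbour. *Spry1* at 124 was then in the eighth place, and *Dusp10* at 27.5 the last. By group mean, *Dusp5* moved from the third to the fifth place and *Spry1* from the fifth to the eighth. The fifth place of *Spry1* rested on *Bptf* f/f replicate 2, at 447 per kilobase. In *Bptf* f/f replicate 1 it had 152, below *Spry2* at 173.

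**Figure D3:**
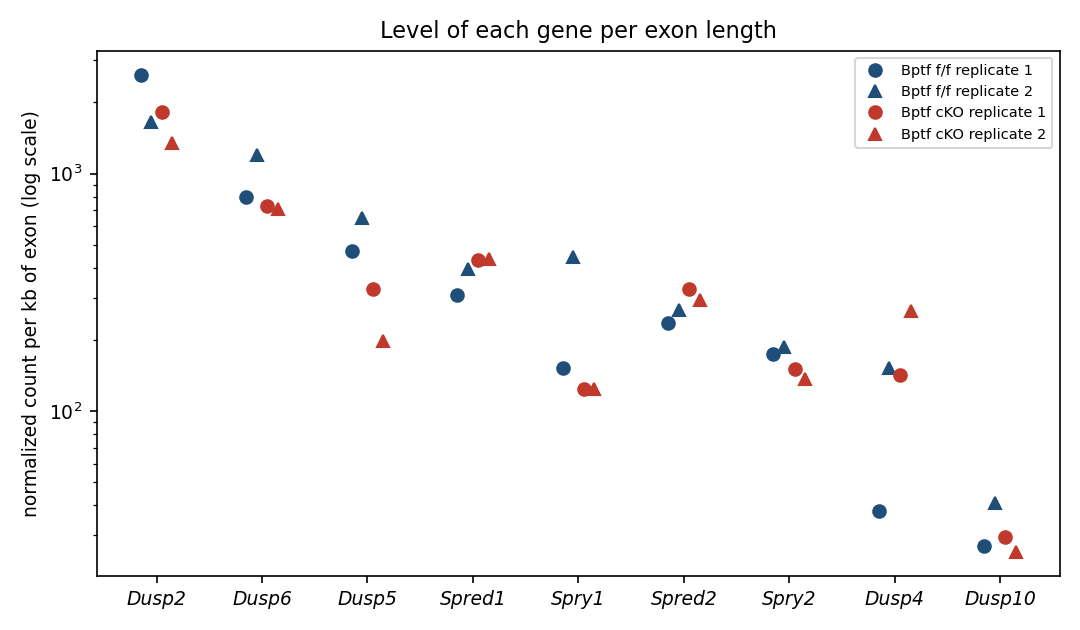
Normalized counts per kilobase of merged exon on a log axis, 1 point per library, with genes ordered by their *Bptf* f/f mean. *Dusp2* lies between 1352 and 2615 and *Dusp10* between 25.5 and 41.0 in every library, and *Spry1* and *Dusp4* show the widest spread within *Bptf* f/f.

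Immediate-early genes are induced within minutes by growth signals and also by cell isolation. In a list of such genes the median log2 difference, *Bptf* cKO minus *Bptf* f/f, was -1.06 within replicate 1 and -2.22 within replicate 2. For the 9 feedback genes it was -0.12 and -0.45. The 17 genes of this list summed to 80404 and 200150 normalized counts in *Bptf* f/f and 30457 and 34054 in *Bptf* cKO, and none was at 0 in any library. In 13 of the 17 the *Bptf* cKO libraries lay below both *Bptf* f/f libraries, and in 0 above, where 23.8% and 23.2% of all tested genes lay so. *Bptf* f/f replicate 2, the highest library for *Dusp5*, *Dusp6*, *Dusp10*, *Spry1* and *Spry2*, was also the highest for *Egr1*, with 18261 against 4588 in replicate 1 and 3358 and 3915 in *Bptf* cKO. *Fos* and *Ier2*, at 37418 and 5637, were highest there too. *Hspa1a*, a heat shock gene, followed the replicate number rather than the genotype, with 269 and 185 normalized counts in the replicate 2 libraries and 17.1 and 1.30 in replicate 1. *Zfp36*, which encodes a protein that speeds the decay of cytokine RNA, was the only one of the list to pass in limma or edgeR. It fell by 1.99 on the log2 scale (adjusted p = 0.0368 in limma and 0.0477 in edgeR). DESeq2 called 10 of the 17 lower and 0 higher, where it called 3.37% of tested genes lower and 2.15% higher. The part of cell handling or of recent signalling in the values of the phosphatase and Sprouty genes was not tested.

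The rest of the phosphatase family did not pass in limma either. *Dusp1*, a nuclear phosphatase well known for its response to stress, had 8370 and 16528 normalized counts in *Bptf* f/f and 2496 and 2768 in *Bptf* cKO, a log2 fold change of -2.16 (SE 0.32, adjusted p = 0.0654 in limma and 1.90e-11 in DESeq2). Both *Bptf* cKO libraries were far below both *Bptf* f/f libraries, and *Bptf* f/f replicate 2 was again the highest. *Dusp7* and *Dusp16* had overlapping groups and log2 fold changes of 0.26 and -0.24. Of the 5 MAP kinase phosphatases that are not among the 9 genes, 4 were tested, with a median log2 fold change of -0.14. Of 8 tested small phosphatases without a MAP kinase binding domain, 0 were called in limma, with a median of -0.077. Among those with a mean of at least 100, the largest differences were those of *Dusp3*, *Dusp28* and *Dusp11*, at -0.91, -0.46 and 0.33. *Dusp3*, with 333 and 358 against 174 and 193 normalized counts, passed with DESeq2 (adjusted p = 0.00934) and not with limma (adjusted p = 0.102).

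The 2 other Sprouty family genes in the table diverged. *Spry4* had 36.4 and 84.5 normalized counts in *Bptf* f/f and 150.1 and 227 in *Bptf* cKO, a log2 fold change of 1.71 (SE 0.47, adjusted p = 0.195 in limma and 0.0335 in DESeq2). *Spred3* had 584 and 471 in *Bptf* f/f and 265 and 206 in *Bptf* cKO, a log2 fold change of -1.16 (SE 0.21, adjusted p = 0.0900 in limma and 6.54e-04 in DESeq2). In both genes the groups did not overlap. *Spry4* thus lay on the side of *Dusp4*, and *Spred3* on the side opposite to *Spred1* and *Spred2*.

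Upstream of Ras, the median log2 fold change of 14 receptor genes was -0.26, and 0 of them were called higher in *Bptf* cKO LSK cells in limma. *Epor*, the erythropoietin receptor, fell, with 326 and 255 normalized counts in *Bptf* f/f and 77.3 and 69.1 in *Bptf* cKO, a log2 fold change of -1.96 (adjusted p = 0.0443 in limma, and 0.0513 with edgeR, and 0.0847 to 0.299 without each library in turn). *Epor* fell beside erythroid markers, of which 4 of the 5 tested were lower in both *Bptf* cKO libraries, as were 23.8% of all tested genes. *Hbb-bs* was among the 4 only narrowly, with 47.97 normalized counts in *Bptf* cKO replicate 2 against 48.06 in *Bptf* f/f replicate 1. All 6 listed erythroid markers summed to 325 and 705 normalized counts in *Bptf* f/f and 79.3 and 226 in *Bptf* cKO. *Hba-a2*, which was too low to be tested, was at 0 in 1 *Bptf* cKO library. The part of erythroid cells in the *Epor* values was not tested.

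The relay from the receptors to the MAP kinases held no called gene in limma. Of 15 adaptor and Ras exchange factor genes, of 11 Ras and Ras inhibitor genes, of 13 genes of the ERK tier and of 16 of the JNK and p38 tier, 0 passed, and their medians were -0.024, 0.0086, 0.011 and 0.021. At an unadjusted p under 0.05, 1, 2, 0 and 1 genes of these lists were lower and 2, 2, 2 and 0 higher, beside 8.96% and 6.79% of all tested genes. *Gab1*, an adaptor of receptor kinases, had a log2 fold change of -1.08 (adjusted p = 0.0570 in limma and 1.98e-05 in DESeq2). *Nf1*, which encodes the neurofibromin that Spred proteins recruit, had 870 and 899 normalized counts in *Bptf* f/f and 1407 and 1323 in *Bptf* cKO. Its log2 fold change of 0.62 (adjusted p = 0.0841 in limma and 0.00182 in DESeq2) had the same sign as those of *Spred1* and *Spred2*. *Rras2* and *Rras*, small GTPases of the Ras family, had log2 fold changes of -0.92 and -0.65. *Rps6ka2*, a kinase that ERK activates, had the largest difference of its tier at 1.32 (adjusted p = 0.293 in limma), and its lowest library held 38 reads.

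Genes that ERK signalling is known to induce went both ways. Of the 14 tested, 0 passed in limma, 2 were higher and 2 lower at an unadjusted p under 0.05 (6.79% and 8.96% of all tested genes), and the median was 0.21. *Etv4*, an ETS family transcription factor, had 14.7 and 83.2 normalized counts in *Bptf* f/f and 335 and 895 in *Bptf* cKO, a log2 fold change of 3.92 (SE 0.89, adjusted p = 0.138 in limma). *Ccnd1*, which encodes cyclin D1, had 493 and 956 in *Bptf* f/f and 1825 and 2145 in *Bptf* cKO, a log2 fold change of 1.53 (SE 0.32, adjusted p = 0.120 in limma and 2.24e-04 in DESeq2). In both genes the *Bptf* cKO libraries were above both *Bptf* f/f libraries, and within each genotype replicate 2 was the higher, as it was for *Dusp4* and *Spry4*. *Egr1* had a log2 fold change of -1.34 (adjusted p = 0.392 in limma). Of 8 transcription factor genes of the Srf, Ets and Creb families, which act at such targets, 0 passed, with a median of 0.016, and *Ets1*, *Ets2* and *Elk3* had log2 fold changes of -0.52, 0.18 and -0.16.

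Markers of basophils and of mast cells, which carry c-KIT, differed in the same direction as *Dusp4*, *Spry4* and *Etv4*. The 4 markers summed to 1165 and 395 normalized counts in *Bptf* f/f and 4861 and 13942 in *Bptf* cKO, all 4 were higher in both *Bptf* cKO libraries, as were 23.2% of all tested genes, and none was at 0. *Cpa3* and *Mcpt8*, the carboxypeptidase and protease of their granules, had log2 fold changes of 3.71 and 3.46 (adjusted p = 0.104 and 0.111 in limma), and both passed with DESeq2 (adjusted p = 0.0108 and 0.00448). *Bptf* cKO replicate 2 was highest for the sum of these markers and for *Dusp4*, *Spry4* and *Etv4*, but *Bptf* f/f replicate 2 was the lowest library of the marker sum and not of these 3 genes. The part of such cells in the result was not tested. Of the T and NK cell markers only *Klrb1c* was analysed here, with 20.2 and 29.1 normalized counts in *Bptf* f/f and 60.4 and 87.5 in *Bptf* cKO.

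**Figure D4:**
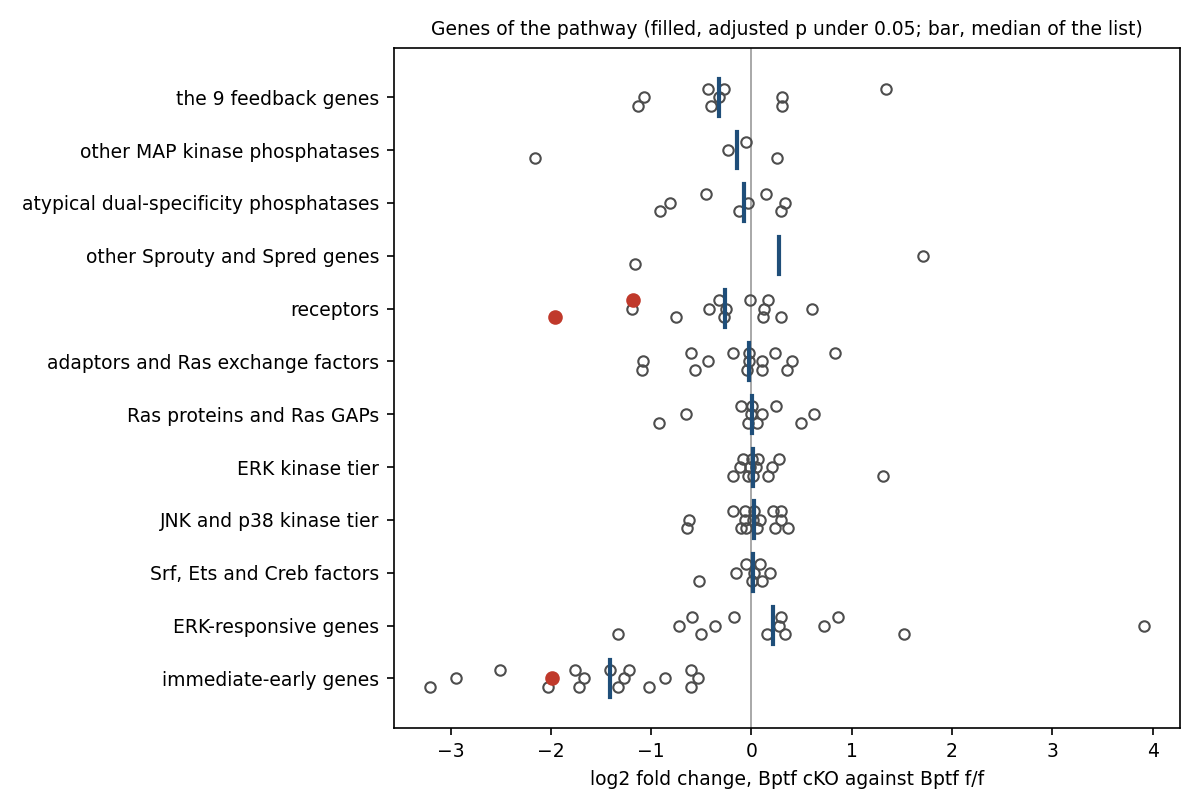
Log2 fold changes of *Bptf* cKO against *Bptf* f/f for each tested gene of the pathway lists. Filled circles were called in limma and open circles were not, and bars are list medians. The 9 feedback genes lie between -1.13 and 1.34, the genes of the JNK and p38 tier between -0.65 and 0.37, and the immediate-early genes all lie below 0.

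The genes whose 4 library values ran most like those of each feedback gene were found by the Euclidean distance between log2 profiles, each centred on its own mean, over the 10815 tested genes with a mean of at least 100. With 4 libraries many genes can fit a profile closely, so the names are a description. The nearest genes to *Spry1* and *Dusp4*, at 0.35 and 0.23, fitted less closely than the nearest of each remaining feedback gene. Nearest to *Dusp5* were *Trim62*, *Ephb4* and *Lca5*, at distances of 0.083, 0.11 and 0.25. Nearest to *Spry1* were *Nrk*, *Prr5l* and *Maff*, at 0.35, 0.40 and 0.40, and *Maff*, a small MAF factor, is on the list of genes induced by ERK. *Dusp4* had *Chga*, *Fn1* and *Etv5* nearest, at 0.23, 0.44 and 0.58. *Etv5*, an ETS factor that ERK signalling induces, had 407 and 1182 normalized counts in *Bptf* f/f and 986 and 1627 in *Bptf* cKO. Its libraries stood in the same order as those of *Dusp4*, with *Bptf* f/f replicate 1 the lowest and *Bptf* cKO replicate 2 the highest. Because *Etv5* was picked by its distance over these same values, the shared order is no further result. *Dusp6* ran with *Zdhhc2*, *Prkab1* and *Atp6v0c*, at 0.089 or less. *Dusp2* ran with *Lfng*, *Crebrf* and *Tbc1d8*, at 0.066 or less, and *Dusp10* with *Ehbp1*, *Plekha8* and *Ccdc112*, at 0.079 or less. *Spry2* had *Gstp1*, *Psip1* and *Cstb* nearest, *Spred1* had *Myo19*, *Nop58* and *Slc9a5*, and *Spred2* had *Pgam5*, *Dkkl1* and *Mrps23*, none farther than 0.049.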

How the data were processed

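RNA-seq of sorted LSK cells was deposited as a single table of genes by symbol. Per the labels, the submitters' processing notes list HISAT2, featureCounts and DESeq2 with builds GRCm38 and mm10, and their settings are not given in the sources used here. The values used are a signal made by the authors, in which each gene count is scaled by its library's size factor. Deposited beside it were the authors' own log2 fold change, a score for its error and test statistic, and p-values, none of which was used.

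Dividing by the value of 1 read in each library gave whole reads for 100% of values (tolerance 1e-06). The table lists genes with 11 or more reads over the 4 libraries. Genes averaging 10 or more normalized counts were compared as log2 of the value plus 1 with limma 3.58.1 (R 4.3.3, with its trend, 1 factor for genotype, two-sided, Benjamini-Hochberg adjustment over all tested genes, threshold 0.05). A fold change on this scale understates the change of low genes. The limma design was kept as planned for normalized values, and edgeR 4.0.16 and DESeq2 1.42.0 on the recovered reads were alternatives, with other pseudocounts (0.5 and 10), filters, scalings, a replicate block and each library left out. The limma, edgeR and DESeq2 fits, each with and without the replicate block, were tested on simulated data, and the other settings were not. The simulated spread between replicates was preset rather than estimated from these data. Counting intervals cover counting error only, because reads carry no molecular identifiers. The p-values rest on the spread between 2 pools of 5 mice per group, and each tool also draws on the spread of the other genes. Exon lengths and coordinates came from GENCODE vM21 and upstream sequence from RefSeq on GRCm38.p6, matched by symbol (9 of 9 and 8 of 9 genes).

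The genes and lists were chosen with earlier results of these data known. Named are all 9 genes, 3 checks, called genes of each pathway list or otherwise up to 3 with the largest difference at a mean of at least 100, *Fos*, *Egr1*, *Ier2* and *Hspa1a*, and the 3 nearest profiles of each gene, except that some results this rule covers are not reported here. *Cpa3*, *Mcpt8*, *Xist*, *Pou5f1*, *Ms4a1*, *Hba-a2*, *Hbb-bs* and *Klrb1c* were named after their values were seen.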

Additional observations from a re-analysis of the deposited data

How the results depend on the processing

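No feedback gene passed in limma with pseudocounts of 0.5 or 10, no filter, a mean of at least 50, recentred medians, quantile normalization or no trend, nor with edgeR. DESeq2 called 1 of the 9 genes lower and 819 genes in all, against 110 in limma, and limma without the trend called 2 in all. *Bptf* was not called with recentred medians (-0.71), without the trend (-0.76) or with edgeR (-0.76). Libraries with the same replicate number deviated together (r = 0.452 over 14858 genes), but the labels state no shared batch. With the replicate block, limma called 4 of the 9 genes lower and 1 higher (2138 in all, 8.36% of tested genes lower and 6.03% higher). They were *Dusp2*, *Dusp5*, *Dusp6* and *Spry1* lower and *Dusp4* higher. Blocked edgeR called the same 4 lower and the same 1 higher (2120 in all, 8.27% of tested genes lower and 6.0% higher). Blocked DESeq2 called 1 lower, *Dusp2*, and 1 higher, *Dusp4* (942 in all, 3.77% of tested genes lower and 2.57% higher). Leaving out each library in turn gave 0 to 1 of the 9 genes lower, 0 higher, 1 to 117 genes called in all and a *Bptf* log2 fold change between -0.80 and -0.72 that was not called in any of the 4 fits. The *Dusp10* estimate then ran from -0.57 to 0.022, reversing without *Bptf* f/f replicate 2. The causes were not tested, except that leaving out a library leaves fewer samples. With 2 libraries per group the spread between pools limits the precision, and counting error adds to it. In the library with the fewest reads it was largest for *Dusp10*, *Dusp4* and *Spry2*, at 13.5%, 8.64% and 7.05%.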
